A study of Zea mays with 3 samples.

Results

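The interval described here is a 16 Mb stretch of maize chromosome 9, from base 47000001 to base 63000000 of B73 RefGen_v4, cut into 1600 bins of 10 kb out of 210639 bins on chromosomes 1 to 10. It was chosen by the CENH3 signal itself, since it holds the B73 centromere near the middle and a second group of bins from 57.4 Mb on that had drawn attention in the same 3 libraries. The levels that chose it are therefore given as a description, with no test.

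The study performed anti-CENH3 chromatin immunoprecipitation and sequencing on young leaves of 3 maize materials. The materials were F3-152 and F3-600, whose genotype labels repeat their names, and the inbred line B73, labelled as the control. Nuclei of all 3 were digested with micrococcal nuclease and precipitated with the same rabbit antiserum against maize CENH3. The series title refers to irradiated material, but the sources used here do not say how F3-152 and F3-600 were obtained or whether each came from 1 plant. Each line had 1 library and no input library was analysed, so that no difference between lines has a replicate check. Each library also carried its own sequencing instrument in the read names, and line, library and instrument cannot be told apart. Intervals are 95% exact Poisson intervals on fragments for levels, the matching conditional binomial intervals for ratios and Clopper-Pearson intervals for shares, and they cover counting error only.

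CENH3 is the variant of histone H3 that replaces the canonical histone in the nucleosomes of active plant centromeres, where the kinetochore assembles. In maize, these nucleosomes lie on the tandem repeat CentC, on centromeric retrotransposons of the CRM families and on single-copy DNA between them. The place of a centromere is inherited with CENH3 itself rather than fixed by the DNA sequence, so that a known centromere can lose CENH3 and new sites can acquire it. Only reads placed with confidence enter these data, and the repeat arrays themselves are therefore seen poorly.

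The libraries held 21026602 reads in F3-152, 14454963 in F3-600 and 7716211 in B73, of which 448152, 182892 and 208643 had their midpoint in the interval. A level is the number of reads in a bin divided by the median of that library's non-empty bins, which was 90 reads in F3-152, 64 in F3-600 and 32 in B73. A bin was called enriched at 10 times that median or more. Over chromosomes 1 to 10, 0.306% of bins were enriched in F3-152, 0.233% in F3-600 and 0.348% in B73. In the interval, 113 bins (7.06%) were enriched in F3-152, 13 (0.812%) in F3-600 and 139 (8.69%) in B73. Since the interval was chosen for this signal, nothing is read from the contrast with the rest of the genome. Outside the interval, chromosome 9 held 1 enriched bin in F3-152, 1 in F3-600 and 0 in B73.

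**Figure D1:**
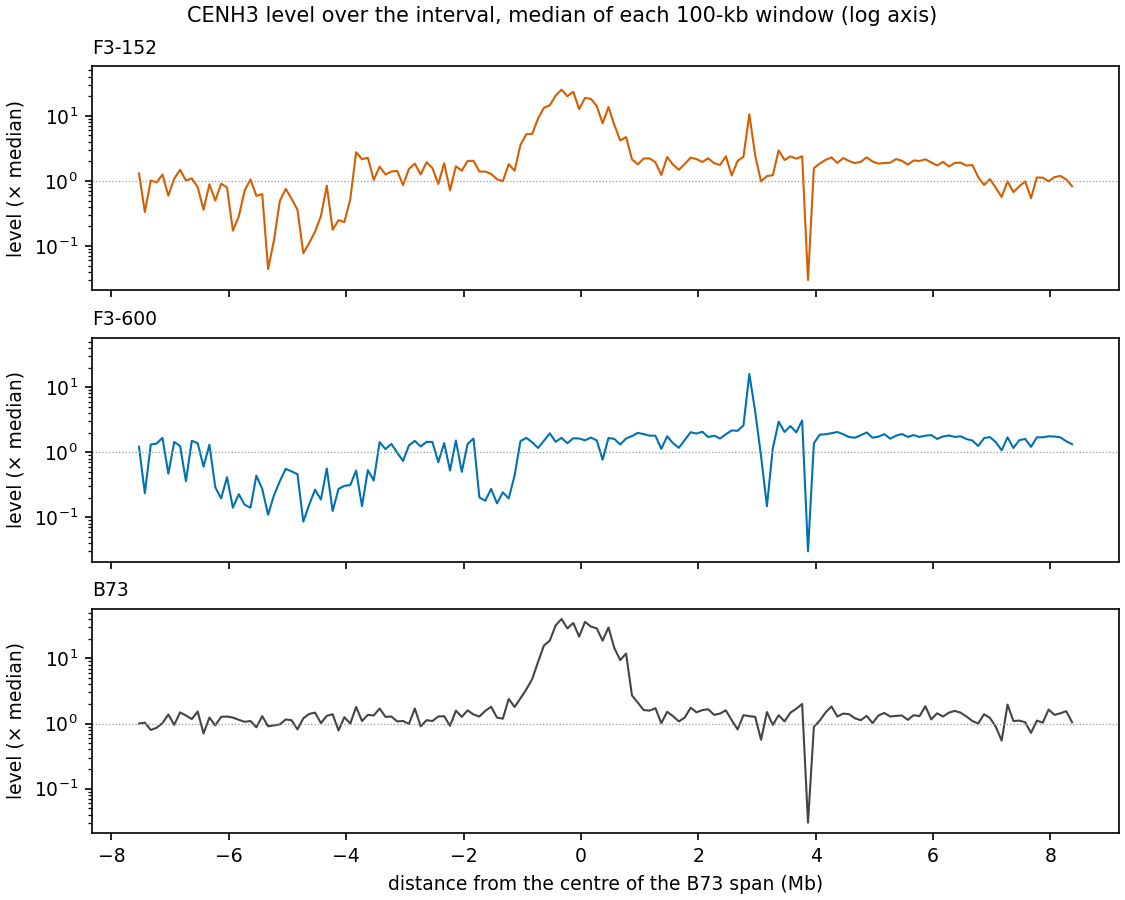
CENH3 level along the interval, as the median of the bins in each 100-kb window (log axis, windows under 0.03 drawn at 0.03), against the distance in Mb from the centre of the B73 centromere span, in F3-152, F3-600 and B73. A broad peak stands at 0 in F3-152 and B73 but not in F3-600, and a narrow peak near 3 Mb to the right stands in F3-152 and F3-600 but not in B73.

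The B73 centromere filled a span of 1.62 Mb, from 53770001 to 55390000, in which 135 of 162 bins (83.3%) were enriched. F3-152 kept CENH3 over most of the same bins at a lower mean level, and F3-600 had none of them enriched. The mean level over the span was 13.99 (13.91 to 14.08) in F3-152, 1.46 (1.43 to 1.498) in F3-600 and 23.41 (23.24 to 23.58) in B73. The corresponding medians over bins were 13.7, 1.59 and 20.9. These means rest on 203991 reads in F3-152, 15189 in F3-600 and 121332 in B73. Relative to B73, the mean was 0.598 (0.592 to 0.603) in F3-152 and 0.063 (0.061 to 0.064) in F3-600. These levels belong to the pattern the interval was chosen by, and the spread between libraries of the same line is unknown.

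The size of the difference between F3-152 and B73 depended on the scale. The non-empty bins of chromosome 9 outside the interval had a median level of 0.667 in F3-152, 0.859 in F3-600 and 1 in B73. The median of F3-152 was lower in 1 long stretch than on either side of it. From the end of the interval to 139 Mb the median was 0.511 in F3-152, 0.828 in F3-600 and 1 in B73, while before the interval it was 0.956, 0.859 and 1, and after 139 Mb 0.889, 0.938 and 0.906. Scaled to that median instead of the one over chromosomes 1 to 10, the span averaged 20.99 in F3-152, 1.71 in F3-600 and 23.4 in B73, which brings the ratio of F3-152 to B73 to 0.897. On that scale the interval had 142 enriched bins in F3-152 and 139 in B73, so the order of the 2 counts turned round. Dividing by a median that holds the low stretch raises every F3-152 level. F3-600 remained the lowest over the span on that scale, with a ratio to B73 of 0.073.

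The first bin inside had a level of 13.7 in F3-152, 1.95 in F3-600 and 10.8 in B73, and the bin just before it had 3.84, 0.672 and 3.31 in the same order of lines. At the right edge, the last bin inside had 4.30 in F3-152, 2.19 in F3-600 and 12.0 in B73, while the next bin outside had 1.30, 0.547 and 4.66. These first outside bins were low in all 3 libraries, and the level sloped off over several bins. The second bin before the span had 8.67 in F3-152, 2.25 in F3-600 and 7.94 in B73, and the second bin after it had 3.56 in F3-152, 2.53 in F3-600 and 8.75 in B73. The lowest enriched B73 bin of the span, at 55250001, had a level of 4.73 in F3-152 and 10.1 in B73. The highest bin of the span that missed the threshold in B73, at 53890001, stood at 6.69 in F3-152 and 9.13 in B73. F3-152 was thus past the threshold at the left edge and below it at the right.

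Enriched bins in F3-152 ran from 53.77 to 55.12 Mb, against 53.77 to 55.39 Mb in B73. At 20 times the median the run was 54.07 to 55.02 Mb in F3-152, with 41 bins past that level, and 54.01 to 55.19 Mb in B73, with 84. At 5 times the median the F3-152 run was the longer, from 53.56 to 55.36 Mb, against 53.69 to 55.43 Mb in B73. At each of these thresholds the right end of F3-152 lay to the left of that of B73. On the left, F3-152 began earlier than B73 at 5 times the median, in the same bin at 10 times and later at 20 times.

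Of the bins of the span enriched in B73, F3-152 shared 102, which is 75.6% of the B73 bins and 99.0% of the F3-152 bins. Another 33 bins were enriched in B73 alone and 1 in F3-152 alone. The fall of F3-152 relative to B73 was not even along the span. Cut into 3 equal parts of 0.54 Mb, the span showed F3-152 further below B73 from left to right. In the left part the mean level was 15.7 in F3-152, 1.51 in F3-600 and 22.0 in B73. In the middle part it was 18.2 in F3-152, 1.496 in F3-600 and 30.9 in B73. In the right part it was 8.12 in F3-152, 1.39 in F3-600 and 17.4 in B73. The ratio of F3-152 to B73 was 0.714 (0.702 to 0.726), 0.588 (0.580 to 0.596) and 0.468 (0.459 to 0.478) from left to right, with no overlap of the counting intervals. Another scale multiplies all of these ratios by the same factor and leaves their order as it is. Enriched bins numbered 42, 43 and 18 in F3-152 along the parts, against 43, 53 and 39 in B73.

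The centre of the reads above background was at 54.45 Mb in F3-152 and 54.55 Mb in B73, a shift of −103 kb. The ratio by parts was also taken on the main merged B73 domain of each other chromosome that had at least 10 enriched bins. In the 4 of these that F3-152 kept, meaning 10% or more of the B73 bins still enriched, on chromosomes 3, 4, 5 and 10, the ratio of the left part to the right part ran between 0.508 and 1.29, against 1.53 on chromosome 9. A fall from left to right in the ratio of F3-152 to B73 was not particular to chromosome 9. The parts had 0.907, 0.811 and 0.702 on chromosome 5 and 0.822, 0.791 and 0.762 on chromosome 10. On chromosomes 3 and 4 the ratio was highest in the right part. The mean level in F3-152 relative to B73 over those 4 spans ran between 0.539 and 0.820, and the chromosome 9 value of 0.598 lies inside that range. These are 5 places of 1 library pair and carry no test.

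**Figure D2:**
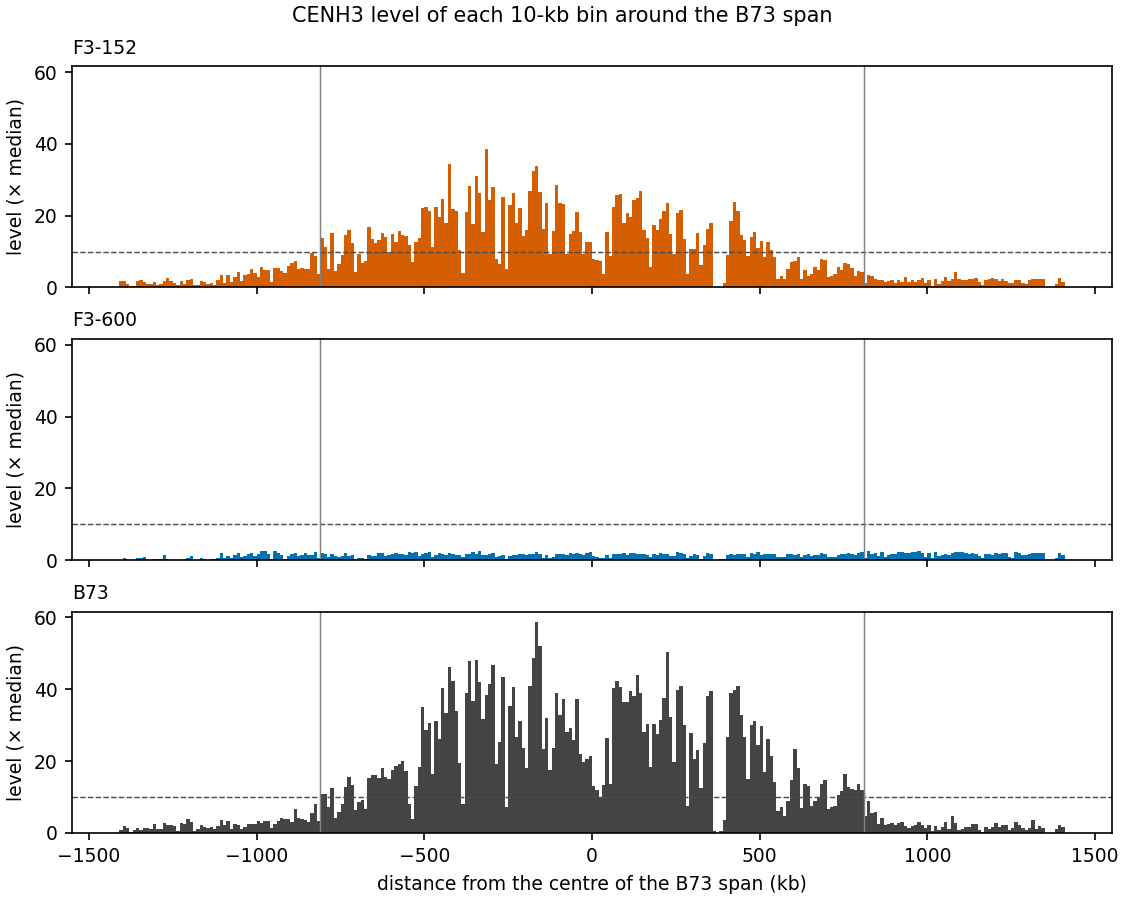
CENH3 level of each 10-kb bin against the distance in kb from the centre of the B73 centromere span, in F3-152, F3-600 and B73. The dashed line is the threshold of 10 times the median and the vertical lines are the ends of the B73 span. F3-152 follows the outline of B73, at a lower height over most of the span but above it in several bins near the left end. It falls under the threshold before the right end, and no F3-600 bin passes 2.50 inside the span.

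Within the span, F3-152 and B73 had high and low bins in the same places. The Spearman correlation of their levels over the 162 bins was 0.90, against 0.49 between F3-152 and F3-600 and 0.48 between F3-600 and B73. These bins share the mappability of their sequence and neighbouring bins share nucleosomes, so that the values are a description. The highest F3-152 bin of the span, at 54260001, had a level of 38.5 in F3-152, 1.56 in F3-600 and 38.4 in B73. The highest B73 bin, at 54410001, had 33.7 in F3-152, 2.34 in F3-600 and 58.7 in B73. F3-152 thus equalled B73 in one of these bins and stood well under it in the other.

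Among the bins of the span enriched in B73 or F3-152, the ratio of F3-152 to B73 was highest at 54030001, where it was 1.49 on levels of 11.9 in F3-152 and 8 in B73. It was 1.27 at 53770001 and 1.21 at 53800001, and all 3 lie in the left part. Among the same bins the ratio was lowest at 55220001, where it was 0.247 on levels of 3.21 in F3-152 and 13.0 in B73. The next lowest were 0.260 at 55360001, in the right part, and 0.262 at 54300001, at the right end of the left part.

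F3-600 had no bin above 2.50 in the span, and the 10% and 90% quantiles of its bins were 0.750 and 2.03. Outside the interval the F3-600 bins had a median of 0.953 with 10% and 90% quantiles of 0.0938 and 1.92. In the 200 bins between the span and the narrow domain to its right, F3-600 averaged 1.73 (1.70 to 1.76), above its own mean over the span. On chromosomes 2 and 8, the other 2 centromere spans of B73 in which F3-600 had no enriched bin, its mean levels were 0.862 and 1.11. F3-152 had no enriched bin in those 2 spans either, with mean levels of 0.850 and 1.34. In the 4 spans that F3-600 kept, its mean relative to B73 ran between 0.496 and 0.851.

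From 57.39 Mb on lay the only other enriched bins of the interval. Apart from a bin enriched in B73 alone, given further below, they fell into 2 kinds that the mean over the last bins does not separate. The first kind was 3 bins at 100 times the median or more in all 3 libraries, called pile-up bins here. The bin at 57390001 had a level of 251 in F3-152, 236 in F3-600 and 501 in B73. At 57400001 the level was 108 in F3-152, 128 in F3-600 and 132 in B73. The pile-up bin at 57430001 had 196 in F3-152, 328 in F3-600 and 130 in B73, so that the libraries ranked differently in each. Reads of the pile-up bins were poorly placed and repeated. Only 5.38% of them in F3-152, 4.39% in F3-600 and 5.13% in B73 had the highest mapping quality of 60, and 38.6%, 41.8% and 35.6% were distinct in start, end and strand. In B73, 43.3% of them lay on the plus strand, against 50.1% in F3-152 and 50.6% in F3-600.

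The second kind was a narrow domain between and to the right of these bins, high in both F3 lines and at background in B73. It ran from 57410001 to 57540000 and held 12 bins besides the pile-up bin inside it. It was delimited, after the values were seen, by bins at 5 times the median or more in both F3 lines with gaps of at most 1 bin, so that its difference from B73 is a description. The mean level over the 12 bins was 9.86 (9.60 to 10.1) in F3-152, 14.2 (13.8 to 14.6) in F3-600 and 1.38 (1.24 to 1.53) in B73. These means rest on 10647, 10898 and 529 reads. The lowest, median and highest bin were 2.74, 10.4 and 14.9 in F3-152, 4.63, 15.7 and 19.1 in F3-600 and 0.125, 1.31 and 2.72 in B73. The lowest F3-152 bin, 2.74, lay above the highest B73 bin, 2.72, by little, and the F3-600 bins did not overlap those of B73.

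Bin by bin, both F3 lines were above B73 in 12 of 12 bins, a count largely fixed by choosing bins high in both F3 lines. F3-600 was above F3-152 in 12 of 12. The same shares over all bins of chromosomes 1 to 10 were not computed, and bins of 1 library are not replicates. On the scale of chromosome 9 outside the interval, both F3 lines remained above B73 in 12 of 12 bins, but F3-600 was above F3-152 in 9 of 12, and the mean of F3-152 relative to F3-600 was 0.896. Enrichment at 10 times the median was reached by 7 of these bins in F3-152, 10 in F3-600 and 0 in B73. All 7 F3-152 bins were among the 10 of F3-600, in a domain chosen for bins high in both lines. The same overlap over chromosomes 1 to 10 was not computed, so nothing is read from it. The mean relative to B73 was 7.16 (6.42 to 7.998) in F3-152 and 10.3 (9.24 to 11.5) in F3-600, and that of F3-152 relative to F3-600 was 0.695 (0.669 to 0.721). The highest F3-600 bin of the domain, at 57410001, had a level of 14.8 in F3-152, 19.1 in F3-600 and 0.656 in B73. At 57520001, near the right end, the levels were 14.0 in F3-152, 17.5 in F3-600 and 1.62 in B73.

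**Figure D3:**
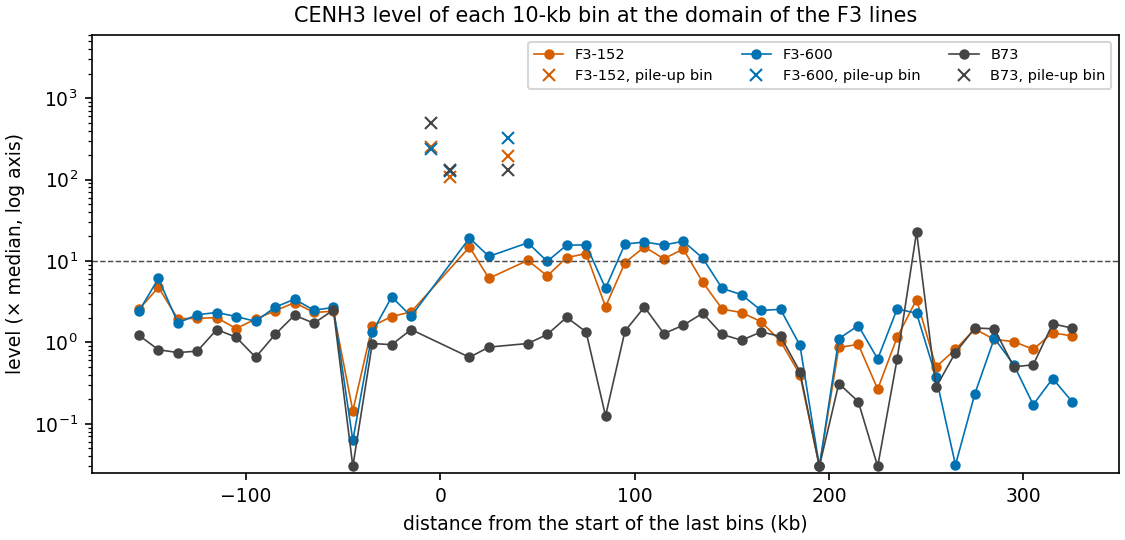
CENH3 level of each 10-kb bin (log axis, values under 0.03 drawn at 0.03) against the distance in kb from the start of the last bins, in F3-152, F3-600 and B73. Circles are bins, crosses are the 3 pile-up bins and the dashed line is 10 times the median. Over the 12 bins of the domain both F3 lines lie above B73, with F3-600 above F3-152 in each, while the crosses of all 3 libraries lie above 100.

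With the pile-up bins included, the stretch from 57390001 to 57540000 averaged 44.9 in F3-152, 57.5 in F3-600 and 52.0 in B73, and the ratio to B73 was 0.863 in F3-152 and 1.11 in F3-600. The difference between the F3 lines and B73 is thus lost in a mean that holds them. The reads of the 12 bins were of another quality than those of the pile-up bins. Distinct reads made up 90.8% in F3-152, 91.3% in F3-600 and 75.6% in B73, and 62.4%, 58.0% and 51.4% had a mapping quality of 60. Over the B73 span, distinct reads made up 87.4% in F3-152, 98.8% in F3-600 and 77.3% in B73. Windows of 1 kb without a read made up 2.50% of the domain in F3-152, 1.67% in F3-600 and 27.5% in B73. The 10% of windows with the most reads held 21.7% of the reads in F3-152, 19.7% in F3-600 and 39.1% in B73. The F3 reads thus lay along the domain and not in a few windows. From the domain's end to the split this share was 22.7% in F3-152, 24.7% in F3-600 and 38.8% in B73. Empty windows there made up 7.92%, 10.9% and 23.4% in the same order. The B73 values were thus close in both places, and the libraries differ in depth. Over the B73 span the share held by the top 10% of windows was 23.8% in F3-152, 22.0% in F3-600 and 23.2% in B73.

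The domain was far shorter than the B73 span. F3-600 had no other domain of 10 or more enriched bins on chromosome 9, and its bins from 57.39 to 57.54 Mb covered 0.15 Mb, pile-up bins included. In F3-152 the domain existed beside the B73 span, and its mean of 9.86 was below the 13.99 of that span. In F3-600 the mean of 14.2 over the domain stood against 1.46 over the span. The bin ending at 57.65 Mb, singled out after its value was seen, was the only one of the last bins enriched in B73 alone, with 3.36 in F3-152, 2.28 in F3-600 and 22.7 in B73.

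The last bins as a whole, 560 bins from 57400001 to 63000000, had a mean level of 2.29 (2.27 to 2.31) in F3-152, 2.73 (2.70 to 2.75) in F3-600 and 1.78 (1.75 to 1.801) in B73. Their medians were 1.57, 1.73 and 1.28. Of these bins 9 were enriched in F3-152, 12 in F3-600 and 3 in B73. Without the 2 pile-up bins among them the means were 1.76 in F3-152, 1.92 in F3-600 and 1.31 in B73. These are far under the threshold of 10. On the scale of chromosome 9 outside the interval, the mean with the pile-up bins was 3.44 in F3-152, 3.17 in F3-600 and 1.78 in B73, which turns the order of the F3 lines round.

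To the right of the domain the bins were split once, at the place where the ratio of the F3 lines changed most. The ratio of F3-152 to F3-600 per bin, over the 468 bins with at least 0.5 times the median in all 3 libraries, split best at 61340001, a position chosen from these same ratios. The median ratio was 1.10 over the 328 bins before it and 0.642 over the 140 bins after it. The 10% and 90% quantiles were 0.798 and 1.40 before and 0.468 and 0.811 after. Split in the same way, the ratio of F3-152 to B73 gave 61350001, the neighbouring bin, with medians of 1.52 before and 0.801 after. The ratio of F3-600 to B73 split elsewhere, at 58150001, which is close to the domain. In 100-kb windows the ratio of F3-152 to B73 also fell there, with 2.20 in the window at −3.25 Mb from the F3-152 to F3-600 split and 1.29 in the next one to the right. The ratio of F3-600 to B73 was 2.13 and 1.33 in the same windows.

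The mean level from the end of the domain to the split was 1.86 in F3-152, 1.73 in F3-600 and 1.35 in B73. From the split to the end of the interval it was 0.927 in F3-152, 1.47 in F3-600 and 1.22 in B73. The ratio to B73 in that last stretch was 0.757 in F3-152 and 1.20 in F3-600. On the scale of chromosome 9 outside the interval it was 1.14 in F3-152 and 1.40 in F3-600, so that F3-152 was then above B73 too. Read by the median ratio in windows of 2 Mb, the lower F3-152 level went on beyond the interval. From 63 to 139 Mb the ratio of F3-152 to F3-600 stayed between 0.535 and 0.722, and from 139 Mb on it was between 0.862 and 0.985. Before the B73 span the median ratio was 1.18 over 316 bins.

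**Figure D4:**
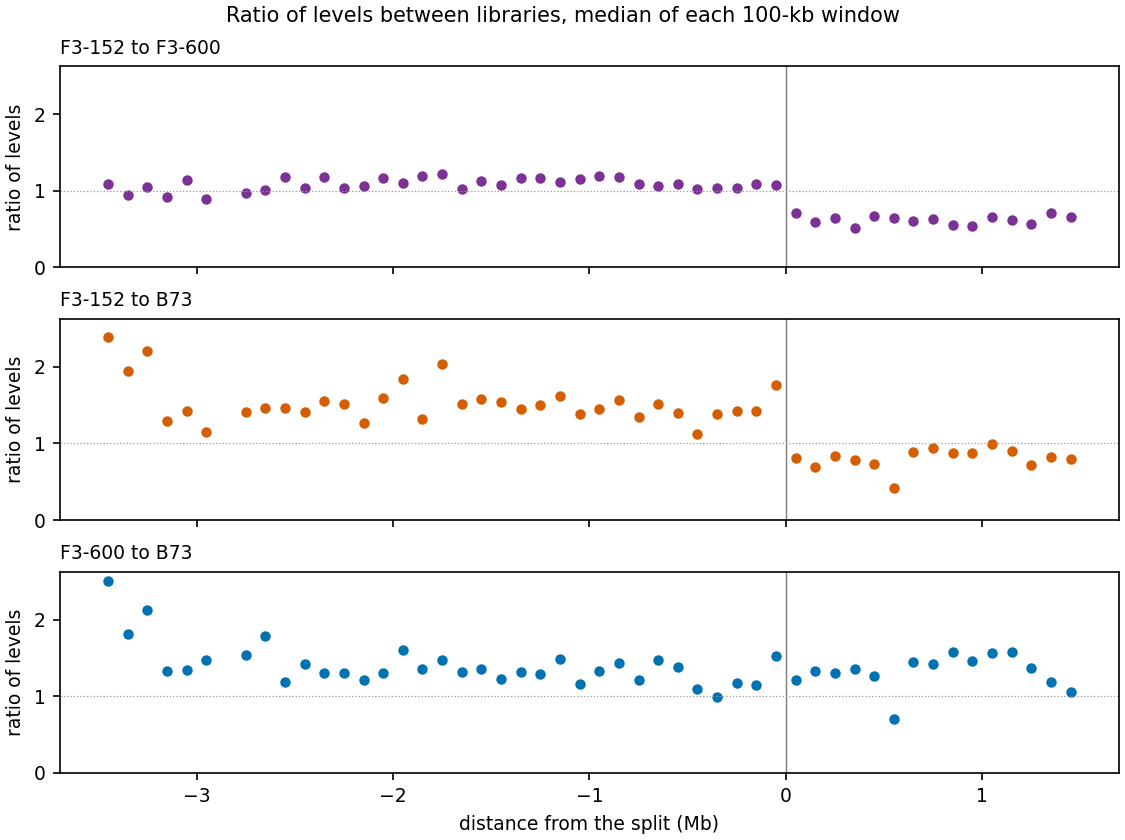
Ratio of levels between libraries, as the median of the bins in each 100-kb window, against the distance in Mb from the split. The panels are F3-152 to F3-600, F3-152 to B73 and F3-600 to B73. The windows of the first 2 panels drop at 0 and those of the F3-600 to B73 panel do not.

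To the left of the span the F3 lines had long gaps in their reads that B73 did not have. How often such gaps lie elsewhere in the genome was not counted. Bins under 0.5 times the median made up 31.0% of chromosomes 1 to 10 in F3-152, 31.6% in F3-600 and 15.4% in B73. In the 677 bins before the span there were 210 such bins (31.0%) in F3-152, 329 (48.6%) in F3-600 and 58 (8.57%) in B73. The F3-152 share was thus that of its genome, while the F3-600 share was above its own and the B73 share below. Thinned to the number of B73 reads, the count was 207 in F3-152 and 334 in F3-600, close to the counts at full depth. The F3 lines shared 187 low bins, 89.0% of those of F3-152 and 56.8% of those of F3-600. The same overlap over all bins of chromosomes 1 to 10, and the part also low in B73, were not computed. Whether this sharing is particular to these bins was therefore not tested. The mean level over these 677 bins was 1.18 (1.16 to 1.19) in F3-152, 0.754 (0.743 to 0.765) in F3-600 and 1.34 (1.32 to 1.36) in B73. In the last bins, to the right of the span, low bins made up 6.96% in F3-152, 6.96% in F3-600 and 9.46% in B73. Each of these shares was below that of the library's genome.

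The gaps came in blocks. The longest in F3-152 ran from 49770001 to 50110000, with median levels of 0.122 in F3-152, 0.156 in F3-600 and 1.28 in B73. In the block from 49200001 to 49400000 the medians were 0.0778 in F3-152, 0.141 in F3-600 and 0.938 in B73. Both F3 lines were low in these blocks, and B73 was near its genome median. Other blocks were low in F3-600 alone. From 52850001 to 53060000 the medians were 1.30 in F3-152, 0.172 in F3-600 and 1.5 in B73, and from 48390001 to 48520000 they were 0.911 in F3-152, 0.188 in F3-600 and 1.31 in B73. Without an input library, fewer reads from absent or divergent DNA and fewer reads from precipitation cannot be told apart.

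The longest block low in B73 ran from 58410001 to 58530000, and its median bin held 0 reads in all 3 libraries. A count of 0 allows up to 3 reads in a bin, which is a level of 0.0333 in F3-152, 0.0469 in F3-600 and 0.0938 in B73. In the whole interval 20 bins were empty in F3-152, 32 in F3-600 and 22 in B73.

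Fragment lengths, which did not enter the choice of the interval, differed more between libraries than between places within a library. Read pairs of 200 bp or less, among pairs under 1000 bp, made up 73.8% of pairs over the B73 span in F3-152, 23.1% in F3-600 and 56.3% in B73. Fragments seen as pairs made up 97.3% of fragments there in F3-152, 96.5% in F3-600 and 67.2% in B73. The B73 lengths thus leave out more of its fragments. Over bins under 5 times the median on chromosomes 1 to 10, in 1 fragment out of 20, the short pairs made up 71.7%, 22.1% and 53.2%. Median lengths over the span were 159 bp in F3-152, 307 bp in F3-600 and 185 bp in B73. In F3-600 the pairs of the span therefore had the median length of the rest of its genome, also 307 bp.

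In the narrow domain, short pairs made up 75.2% (74.0 to 76.3) in F3-152, 28.5% (27.3 to 29.7) in F3-600 and 48.6% (41.1 to 56.1) in B73. The B73 value rests on 181 pairs, 52.0% of its fragments there. In F3-600 this share was above that of its B73 span, 23.1% (22.2 to 24.1), and above that from the domain's end to the split, 23.8% (23.2 to 24.4), beyond the counting intervals. In B73 the interval over the domain overlapped that over its own span, 56.3% (55.8 to 56.7). In F3-152 the domain and the span, 73.8% (73.5 to 74.1), overlapped too, and both lay above the 72.1% (71.6 to 72.6) from the domain's end to the split. In F3-152 the stretch after the split, with a level below that before it, had 74.1% (73.05 to 75.1), so that short pairs in that library did not follow the level alone. The pile-up bins had 75.1% in F3-152, 38.4% in F3-600 and 47.8% in B73.

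**Figure D5:**
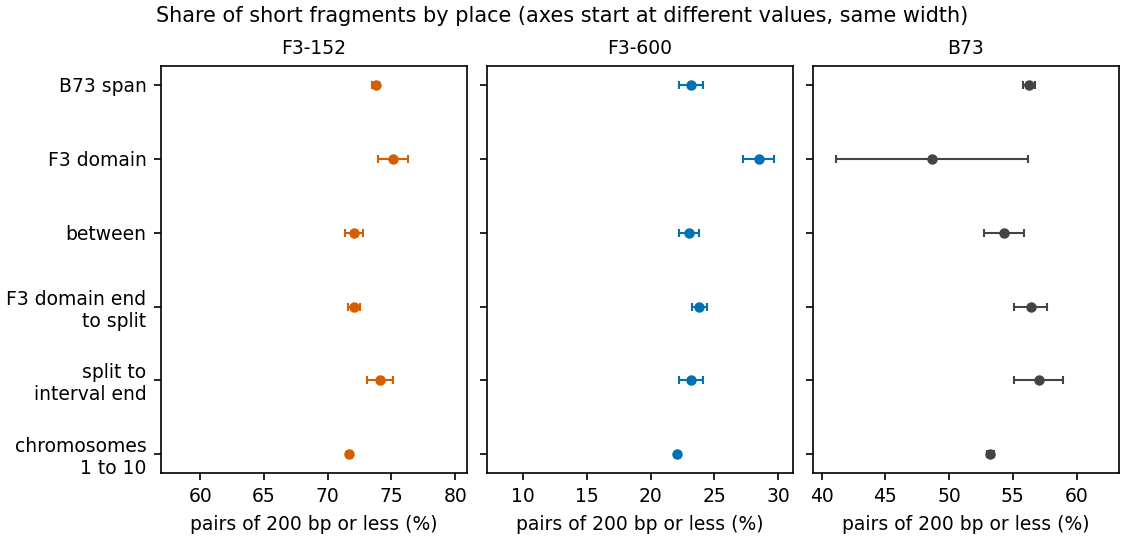
Share of read pairs of 200 bp or less (%) by place in F3-152, F3-600 and B73, with Clopper-Pearson 95% intervals for counting error. The axes start at different values and have the same width. The F3 domain lies to the right of the other places in F3-600 and to the left, with a wide interval, in B73.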

How the data were processed

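Anti-CENH3 ChIP-seq reads from young leaves of F3-152, F3-600 and B73 (1 library each) were analysed. Each line of the deposited tables is a single alignment: its start and end (other values, positions that the authors did not normalize) and a mapping quality score, 20 to 60 here. The labels name CASAVA, BWA and B73 RefGen_v4. The paper's methods describe unique mapping for B73, and how duplicates were handled is not given in the sources used here. Reads with the same start, end and strand remained in every library.

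Reads were counted by midpoint in 10-kb bins and divided by the library's median non-empty bin. Enriched bins (10 times the median or more) within 500 kb were merged into domains. Bins under 0.5 times the median were called low and reported in runs of 10 or more. The interval, its members and the lists of bins were chosen with earlier results of these data known. Named bins were the 5 highest per library, the 3 highest and lowest ratios among enriched bins of the span, the edge bins and those of the F3 domain. The domain, the pile-up bins and the split were defined after values were seen. With 1 library per line no test between lines was run. On simulated bins, the rules recovered 3 of 3 domains, 3 of 3 low runs (to within 1 bin) and 3 of 3 splits. The simulated domains were unbroken blocks and the splits a single step in the ratio. Interrupted spans, pile-up bins and the rule for the narrow F3 domain were not simulated. Alternatives were mapping quality, duplicates, scale, fragments, depth, bin size, threshold and span. Tables were made with NumPy 2.4.6 and pandas 2.3.3 under Python 3.11.15, intervals with SciPy 1.17.1 and plots with Matplotlib 3.10.9.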

Additional observations from a re-analysis of the deposited data

Results flagged for a closer look

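Between the split at 61340001 and the end of the interval, the F3 lines lay on opposite sides of B73 when levels were scaled to chromosomes 1 to 10. The ratio of mean levels to B73 was 0.757 in F3-152 and 1.20 in F3-600, each from 1 library. Scaled to chromosome 9 outside the interval the ratios were 1.14 and 1.40, and both lines lay above B73. The difference was not tested, and the split was placed where the ratio of F3-152 to F3-600 changed most. The lower F3-152 level was not confined to the interval, since its ratio to F3-600 stayed between 0.535 and 0.722 as far as 139 Mb.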

How the results depend on the processing

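The values depend on 1 library per line, on no input library, on reads placed with confidence and on the scale. F3-600 had the lowest mean over the span in every setting tried. The counts of enriched bins moved by over 1.5 times only at 20 times the median (44 in F3-152, 3 in F3-600 and 88 in B73) and in 50-kb bins, which are fewer by construction (25, 4 and 32). At 5 times the median they were 165, 15 and 165. The mean over the last bins kept both F3 lines above B73 in every setting.

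The following means lay outside the counting interval of the reported value, in the order F3-152, F3-600 and B73. Over the span they were 12.7, 1.37 and 20.7 scaled to the mean of all bins, 15.9, 1.59 and 26.9 in bins enriched in B73, and 18.7, 1.67 and 30.3 in bins enriched in F3-152. Scaled to chromosome 9 outside the interval the span averaged 20.99 in F3-152 and 1.71 in F3-600. With a mapping quality of at least 30 it averaged 14.5 in F3-152 and 23.0 in B73, and with 1 read per start, end and strand 12.4 in F3-152 and 20.9 in B73. It was 13.9 in F3-152 with fragments counted once and 23.2 in B73 in 50-kb bins.

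Over the last bins the means were 2.07, 2.55 and 1.55 scaled to the mean of all bins, 2.16, 2.48 and 1.56 with a mapping quality of at least 30, and 1.95, 2.24 and 1.44 with 1 read per start, end and strand. They were 1.596, 1.69 and 1.29 when the stretch began 500 kb later, past the pile-up bins and the narrow domain. Chosen after seeing the data, leaving out the pile-up bins gave 1.76, 1.92 and 1.31, and the median in place of the mean gave 1.57, 1.73 and 1.28. On the scale of chromosome 9 the means were 3.44 in F3-152 and 3.17 in F3-600. Fragments counted once gave 2.79 in F3-600 and 1.89 in B73, and 50-kb bins gave 1.71 in B73. Beyond what each setting leaves out or divides by, the cause of these moves was not tested.

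Over the F3 domain without pile-up bins, the ratio to B73 under 5 alternatives, with B73 recomputed, ran between 6.21 and 10.7 in F3-152 and between 8.89 and 12.0 in F3-600. The median ratio of F3-152 to F3-600 after the split ran between 0.625 and 0.649 under 3 alternatives. No paired analysis was possible because each line had 1 library.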
